A study of Mus musculus with 6 samples.

Results

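Imprinted genes are expressed mainly from the maternal or the paternal chromosome, and 34 of them, headed by the long non-coding RNA H19, were examined in mouse T cells cultured toward the regulatory T cell (Treg) fate with or without the integrin-binding protein DEL-1. H19 was chosen by its measured difference in counts between the groups of this series. The other members were listed by their imprinting, with the H19 difference already known, to ask whether other imprinted loci moved with it. Of the 34 symbols, 31 matched a row among the 39179 gene identifiers, and Kcnq1ot1, Snrpn and Peg13 were not matched by their GENCODE M21 identifiers and were not analysed here. Because of how it was chosen, H19 is described without a test. The other members carry p-values adjusted over all genes tested.

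The treated group was labelled DEL-1-Fc, the secreted protein DEL-1 fused to an antibody Fc part, and its control was labelled Fc. Each group had 3 polyA RNA-seq libraries. Both groups began as naive splenic CD4+ T cells from C57BL/6 wild-type mice, 6 weeks of age. Culture lasted 3 days in either group and included IL-2 (40 ng/ml), TGF-β1 (5 ng/ml), anti-CD28 (1 µg/ml) and plate-coated anti-CD3 (2 µg/ml, where the first letter of the unit is garbled in the labels). Nothing in the labels says that replicates came from separate animals or cultures. The p-values therefore reflect library-to-library spread, and that spread may be purely technical. The cells are a culture model, and the whole culture rather than a sorted fraction is what the labels describe.

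Library totals lay between 33364166 and 61967687 counts, with DEL-1-Fc replicate 1 the shallowest. That library also stood apart from DEL-1-Fc replicates 2 and 3 on the first and second principal components of log CPM, which carried 44% and 23.3% of the variance. On the first it lay at 47.7, against 14.3 and 12.8 for DEL-1-Fc replicates 2 and 3, and on the second at 27.9, against -28.7 and -23.6. For the members, calls that changed without this library are given without it as well. The 7 T cell markers summed to between 2873.0 and 3241.4 CPM (counts scaled to library size) in DEL-1-Fc and between 2846.0 and 3001.5 CPM in Fc. The 7 stromal fibroblast markers, from a cell type that can express H19, summed to between 0.548 and 0.81 CPM in DEL-1-Fc libraries, against sums between 0.565 and 0.8 CPM in Fc, and Col3a1, Pdgfra and Dcn had 0 counts throughout. Of the Treg markers, Foxp3, the lineage-defining transcription factor, measured 521.0, 584.1 and 464.8 CPM in DEL-1-Fc libraries, against 315.6, 414.1 and 348.8 CPM in Fc libraries, and was called higher (log2 fold change 0.54, edgeR adjusted p = 0.0166). Ctla4, an inhibitory receptor, had 391.0, 421.6 and 460.9 CPM in DEL-1-Fc libraries, against 515.8, 516.7 and 539.9 CPM in Fc libraries, and was called lower (-0.30, adjusted p = 0.0310). Il2ra (0.05, adjusted p = 0.765), Ikzf2 (-0.10, adjusted p = 0.535) and Tnfrsf18 (-0.16, adjusted p = 0.343) did not pass. In bulk RNA, a change in the share of cells that express a gene cannot be told apart from a change in the RNA per cell.

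H19 and Igf2 are the textbook imprinted pair. They share enhancers, and the protein CTCF, bound to the unmethylated maternal imprinting control region, keeps those enhancers for maternal H19, while methylation of the paternal copy leaves them to Igf2, which encodes insulin-like growth factor 2. H19 RNA is abundant in the fetus and is shut down in most tissues after birth. It is also the host transcript of the miRNA miR-675. Other members form clusters of the same kind, in which a non-coding RNA such as Airn, Kcnq1ot1 or Meg3 sits beside protein-coding genes expressed from the opposite parental copy.

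The precursor of miR-675 lies within exonic sequence of H19 at chr7:142577064-142577147 (GRCm38, minus strand). It is shown because H19 had the most counts of the 7 members that host an annotated miRNA. The hairpin is from RefSeq (GRCm38.p6), with both mature arms in capitals. The mature miRNAs hosted by H19, Igf2 and Mest follow it, 5′ to 3′, with the seed (bases 2 to 8) in capitals. No seed is shared among them.
mir-675 hairpin: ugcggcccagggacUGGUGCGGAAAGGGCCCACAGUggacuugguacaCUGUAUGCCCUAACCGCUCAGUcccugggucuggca
mmu-miR-675-5p: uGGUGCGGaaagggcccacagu
mmu-miR-675-3p: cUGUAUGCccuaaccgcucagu
mmu-miR-483-5p: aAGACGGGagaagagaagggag
mmu-miR-483-3p: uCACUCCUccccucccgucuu
mmu-miR-335-5p: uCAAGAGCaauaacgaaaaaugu
mmu-miR-335-3p: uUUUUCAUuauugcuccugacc

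These libraries measured polyadenylated host RNA and not mature miRNAs, and the miR-675 row itself held 0 counts in all 6 libraries. All 84 bases of that row lie within H19 exons on the same strand, so a read there also falls on H19. The 0 therefore cannot be read as a level of miR-675. Of the other hosts, Igf2 had between 4 and 26 counts per library and Mest between 17 and 51. Mirg, which holds 14 annotated hairpins, and Rian, which holds 3, had 0 or 1 count per library, and Meg3 and Usp29 had 0.

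H19 (ENSMUSG00000000031) lies at chr7:142575529-142578143 on the minus strand. It had 1482, 2600 and 2453 counts in DEL-1-Fc replicates 1, 2 and 3, against 375, 584 and 472 counts in Fc replicates 1, 2 and 3. Scaled to the library, this was 45.2, 46.0 and 41.4 CPM in DEL-1-Fc libraries, against 6.61, 9.53 and 8.60 CPM in Fc. The 3 DEL-1-Fc libraries lay close together and far above every Fc library. The difference was 5.35-fold, a log2 fold change of 2.42, and it lay between 2.28 and 2.54 when each library was left out in turn.

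Per kilobase of exon, H19 averaged 18.0 CPM in DEL-1-Fc libraries, against 3.35 CPM in Fc. That placed it at rank 2 of the 31 matched members in DEL-1-Fc, behind Igf2r, and at rank 8 in Fc. Among 14757 tested genes with a known exon length it ranked 3360 in DEL-1-Fc and 8329 in Fc. H19 made up 6.36% to 6.92% of the summed CPM of the matched members in DEL-1-Fc libraries, and 1.07% to 1.42% in Fc libraries. Without H19, the members summed to 607.7, 623.4 and 609.1 CPM in DEL-1-Fc libraries, against 610.7, 662.4 and 603.0 CPM in Fc, so the groups overlapped.

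**Figure D1:**
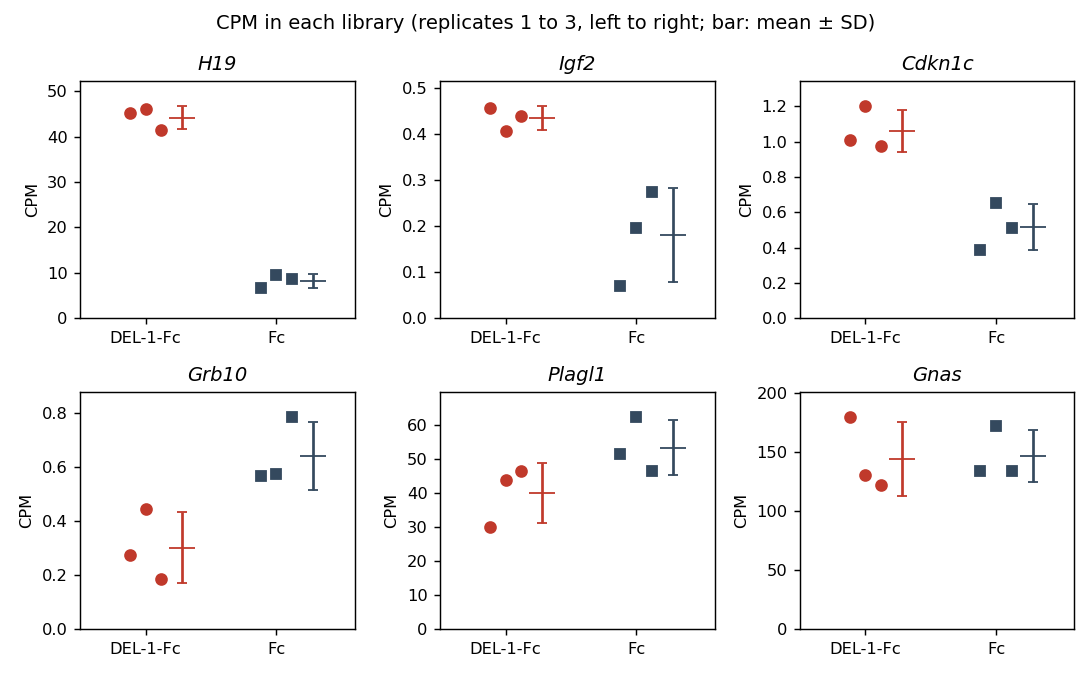
CPM of 6 imprinted genes in each library, with DEL-1-Fc (red circles) left of Fc (dark squares) and the mean ± SD of the 3 libraries beside the points; each panel starts at 0. H19, Igf2 and Cdkn1c lay higher in all 3 DEL-1-Fc libraries, Grb10 lay lower in all 3, and the groups overlapped for Plagl1 and Gnas.

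Across the transcriptome, 1884 of 14928 genes tested (12.6%) were called by edgeR's quasi-likelihood test at a Benjamini-Hochberg adjusted p under 0.05, 956 of them higher (6.4%) and 928 lower (6.22%) in DEL-1-Fc. Of the 31 matched members, 19 had enough reads to be tested. Among the 18 other than H19, 1 was called higher (Cdkn1c), 0 were called lower and 17 did not pass. At an unadjusted p under 0.05, 2 were higher (Cdkn1c and Igf2) and 1 lower (Grb10), and DESeq2 and limma-voom also called 1 higher and 0 lower. The share called, 5.56%, was below the 12.6% of all genes. The median log2 fold change of these 18 genes was 0.01 and that of all tested genes 0.01, with 9 above and 9 below 0. Groups did not overlap for 5 of the 18, 2 higher and 3 lower in DEL-1-Fc, where 34.8% of all tested genes did not overlap. Of the 8 tested genes usually expressed from the maternal copy, 1 was called, and of the 10 usually expressed from the paternal copy 0 were called. Beside these small counts, 12.6% of all tested genes were called. The parental copy is a listed label for each gene, and the copy that gave the reads was not measured.

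**Figure D2:**
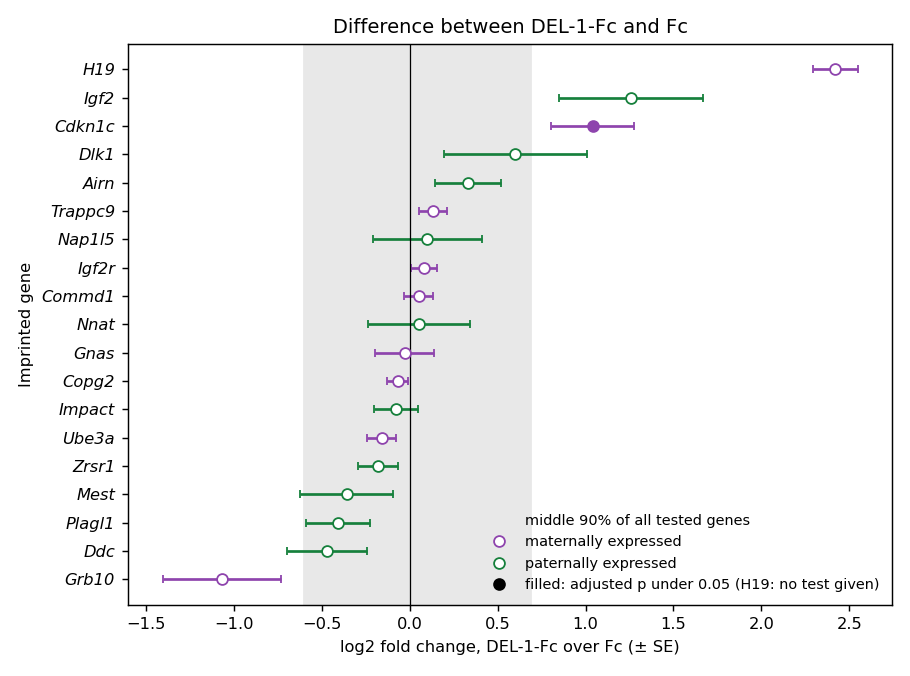
Log2 fold change of the 19 tested imprinted genes, DEL-1-Fc over Fc, with bars of 1 SE, coloured by the parental copy they are usually expressed from. The grey band holds the middle 90% of all tested genes (-0.60 to 0.69); H19, Igf2 and Cdkn1c lie above it and Grb10 below it, and of these Cdkn1c passed the test.

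Cdkn1c encodes p57, an inhibitor of cyclin-dependent kinases expressed from the maternal copy. It lies at chr7:143458339-143461050 on the minus strand, 880 kb from H19. It had 33, 68 and 58 counts in DEL-1-Fc and 22, 40 and 28 counts in Fc, or 1.01, 1.20 and 0.978 CPM in DEL-1-Fc libraries, against 0.388, 0.653 and 0.510 CPM in Fc. At this low level the groups did not overlap, with DEL-1-Fc above. The gene rose 2.05-fold (log2 fold change 1.04, SE 0.235, edgeR adjusted p = 0.0215). The call was lost without DEL-1-Fc replicate 2 (log2 fold change 0.93, adjusted p = 0.0622) or 3 (1.10, 0.0525) and without Fc replicate 1 (0.87, 0.0859) or 3 (1.03, 0.0839). An antisense gene, Gm44732, which has no row in the counts, covers 30.7% of the exonic bases of Cdkn1c. The reads of Cdkn1c are uncertain while the strand setting of the counting is not given.

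Igf2, the paternally expressed partner of H19, lies at chr7:142650766-142666816 on the same strand. It had 15, 23 and 26 counts in DEL-1-Fc and 4, 12 and 15 counts in Fc. At 0.457, 0.407 and 0.439 CPM in DEL-1-Fc libraries, against 0.0705, 0.196 and 0.273 CPM in Fc, the groups did not overlap, but counts were few. A count of 0 allows roughly up to 3 counts. That equals 0.0914 CPM in DEL-1-Fc replicate 1, the shallowest library, and 0.0529 CPM in Fc replicate 1, where Igf2 was lowest. The log2 fold change was 1.26 (SE 0.410) and did not pass (edgeR adjusted p = 0.0820), and its adjusted p lay between 0.0609 and 0.192 over the settings tried. H19 outnumbered Igf2 by 98.8, 113 and 94.3 counts to 1 in DEL-1-Fc and by 93.8, 48.7 and 31.5 to 1 in Fc. The predicted gene Gm49394, which has no row in the counts, covers 62.8% of the exonic bases of Igf2 on the same strand. Whether reads counted for Igf2 came from Gm49394 is therefore uncertain.

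Within 200 kb of H19, 17 other annotated genes had a row of counts, and 6 of these were tested. Mrpl23, a mitochondrial ribosomal protein gene 34.8 kb away and the nearest tested neighbour, measured 57.1, 51.3 and 53.9 CPM in DEL-1-Fc libraries, against 43.3, 42.6 and 45.5 CPM in Fc. It rose 1.23-fold (log2 fold change 0.30, SE 0.0658, edgeR adjusted p = 0.0180), a call that needed DEL-1-Fc replicate 3 (adjusted p = 0.0517 without it) and each Fc replicate (0.0958, 0.0973 and 0.0563 without 1, 2 and 3). Lsp1, a leukocyte actin-binding protein gene at 80.7 kb, averaged 624.6 ± 40.3 CPM in DEL-1-Fc libraries, against 587.6 ± 10.6 CPM in Fc (SD, n = 3 each), and did not pass (log2 fold change 0.09, adjusted p = 0.457). Ctsd, encoding the lysosomal protease cathepsin D (0.11, adjusted p = 0.437), and Prr33 (-0.25, adjusted p = 0.264) did not pass either. Ins2, the insulin gene next to Igf2, had 0 counts in every library.

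The view was then widened to the imprinted cluster that surrounds H19 and continues through the Kcnq1 domain to Osbpl5, a span of 1380 kb running from 200 kb before H19 and chosen after the values were seen. Of 19 tested genes there other than H19, 4 were called higher and 2 lower, which is 31.6% against 12.6% of all tested genes. The median log2 fold change was 0.26 against 0.01 for all tested genes, with 16 genes above 0 and 3 below. As the region was chosen with these values in view, its share is a description. Tspan32, a tetraspanin of blood cells, had 54.6, 59.6 and 54.3 CPM in DEL-1-Fc libraries, against 32.1, 33.7 and 33.6 CPM in Fc (log2 fold change 0.76, SE 0.0654, edgeR adjusted p = 0.000204). Its neighbour Cd81, another tetraspanin, moved the other way, with 107.4, 98.0 and 93.9 CPM in DEL-1-Fc libraries, against 123.6, 136.7 and 134.9 CPM in Fc (-0.40, SE 0.0716, adjusted p = 0.00725). Cars, the cysteinyl-tRNA synthetase gene, fell by 0.38 on the log2 scale (adjusted p = 0.00477), and Tnfrsf26, a death receptor family gene, rose by 0.83 (adjusted p = 0.00165). Nap1l4, between Cdkn1c and Cars, stood at 210.9 ± 1.70 CPM in DEL-1-Fc libraries, against 206.9 ± 7.95 CPM in Fc (0.03, adjusted p = 0.801). Osbpl5 (0.33, adjusted p = 0.106) and the low Tnfrsf23 (0.96, adjusted p = 0.0559) did not pass with all libraries. Without DEL-1-Fc replicate 1 both passed (0.39, adjusted p = 0.0334, and 1.01, adjusted p = 0.0374). Tnfrsf23 passed in 4 of 14 other settings and Osbpl5 in 1 of 15.

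**Figure D3:**
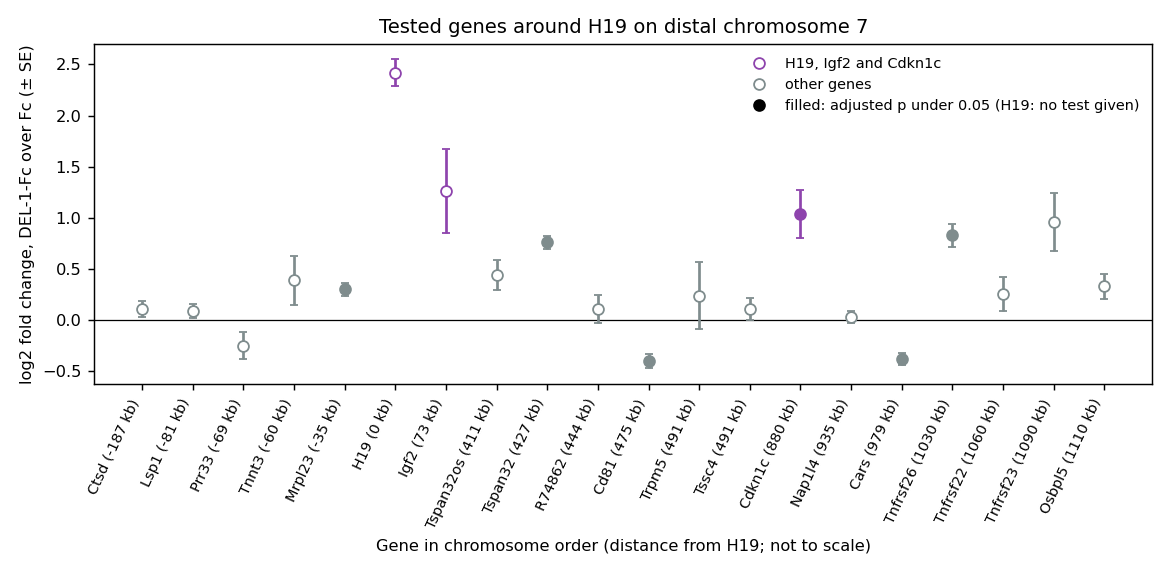
Log2 fold change with 1 SE for the 20 tested genes from Ctsd to Osbpl5, in chromosome order with the distance from H19 in kb; the axis is not to scale. H19 stands highest at 2.42, 16 of the other 19 genes lie above 0, and genes past the test are filled.

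Grb10 and Ddc, neighbours on chromosome 11, were low. Grb10, an adaptor that restrains insulin and IGF1 receptor signals and is maternally expressed outside the brain, had 9, 25 and 11 counts in DEL-1-Fc and 32, 35 and 43 counts in Fc. Its 0.274, 0.442 and 0.186 CPM in DEL-1-Fc lay below 0.564, 0.571 and 0.783 CPM in Fc, without overlap. The log2 fold change of -1.07 (SE 0.337) did not pass (edgeR adjusted p = 0.0731), but it passed when DEL-1-Fc replicate 2 was left out (-1.52, adjusted p = 0.0278) and when no filter on low counts was used (-1.08, adjusted p = 0.0455). Ddc, the gene of aromatic amino acid decarboxylase, had 1.49, 0.885 and 1.01 CPM in DEL-1-Fc libraries, against 1.3, 1.5 and 1.8 CPM in Fc. The groups overlapped, with DEL-1-Fc replicate 1 among the Fc values, and the log2 fold change of -0.47 (SE 0.229, adjusted p = 0.231) passed once that library was left out (-0.69, adjusted p = 0.0341).

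Plagl1 encodes ZAC1, a zinc finger transcription factor described as a regulator of other imprinted genes, H19, Igf2 and Cdkn1c among them. It was well expressed, at 29.9, 43.6 and 46.5 CPM in DEL-1-Fc libraries, against 51.3, 62.2 and 46.3 CPM in Fc. The highest DEL-1-Fc library lay just above the lowest Fc library. The log2 fold change of -0.41 (SE 0.181) did not pass (edgeR adjusted p = 0.203), and it was -0.24 (adjusted p = 0.275) without DEL-1-Fc replicate 1, the lowest library, and -0.28 (adjusted p = 0.446) without Fc replicate 2, the highest.

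Per kilobase of exon, Igf2r was the most abundant member in both groups. Igf2r encodes the receptor that carries mannose 6-phosphate proteins to lysosomes and clears IGF2, and Airn is the antisense RNA of the paternal copy. Igf2r had 192.8, 226.9 and 219.4 CPM in DEL-1-Fc libraries, against 202.4, 203.4 and 198.0 CPM in Fc, with overlap (log2 fold change 0.08, SE 0.0719, edgeR adjusted p = 0.505). Airn had 3.11, 4.85 and 4.28 CPM in DEL-1-Fc libraries, against 3.47, 3.62 and 2.70 CPM in Fc, also with overlap (0.33, SE 0.188, adjusted p = 0.303). With DEL-1-Fc replicate 1 left out, Igf2r (0.15, adjusted p = 0.0418) and Airn (0.48, adjusted p = 0.0465) both passed. Igf2r outnumbered Airn by 62.0, 46.8 and 51.2 counts to 1 in DEL-1-Fc and by 58.3, 56.2 and 73.5 to 1 in Fc.

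The remaining well-expressed members are broadly expressed genes, several of them imprinted in some tissues only. Gnas, the stimulatory G protein α subunit, had 179.3, 130.1 and 121.6 CPM in DEL-1-Fc libraries, against 133.3, 172.0 and 134.0 CPM in Fc. One library in each group stood above its partners, and the log2 fold change was -0.03 (SE 0.169, edgeR adjusted p = 0.934). Ube3a, a ubiquitin ligase imprinted in neurons, had 60.4, 73.9 and 74.1 CPM in DEL-1-Fc libraries, against 79.2, 76.6 and 77.8 CPM in Fc, without overlap and with a log2 fold change of -0.16 (SE 0.0840, adjusted p = 0.251). Genes on the opposite strand overlap both, Nespas and Gm20721 at Gnas and Snhg14, which has no row in the counts, at Ube3a. The reads of Gnas and Ube3a are therefore uncertain too. Zrsr1, a splicing factor retrogene within the Commd1 locus, averaged 5.45 ± 0.529 CPM in DEL-1-Fc libraries, against 6.19 ± 0.237 CPM in Fc (SD, n = 3 each), without overlap (-0.18, adjusted p = 0.350). Its host Commd1, a regulator of copper handling and NF-κB, averaged 21.5 ± 1.73 CPM in DEL-1-Fc libraries, against 20.8 ± 0.932 CPM in Fc (0.05, adjusted p = 0.742). Annotated exons of the pair share 412 bases on opposite strands, so reads of both are uncertain there. Copg2, a coatomer subunit (-0.07, adjusted p = 0.527), Impact, an inhibitor of the amino acid sensor GCN2 (-0.08, adjusted p = 0.734), and Trappc9, a vesicle tethering factor (0.13, adjusted p = 0.323), did not pass and overlapped between the groups. Leaving out DEL-1-Fc replicate 1 moved Gnas to -0.22 (edgeR adjusted p = 0.345), Ube3a to -0.07 (0.284) and Impact to 0.06 (0.645), still not passing. The exons of Mest and Copg2 overlap on opposite strands over 33.5% of the 31-base words of the longest Mest transcript, and over 22.4% of those of the longest Copg2 transcript, so reads of both are uncertain. Mest itself, a hydrolase-fold protein gene, had 0.518, 0.831 and 0.472 CPM in DEL-1-Fc libraries, against 0.899, 0.685 and 0.783 CPM in Fc (-0.36, SE 0.262, adjusted p = 0.416).

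**Figure D4:**
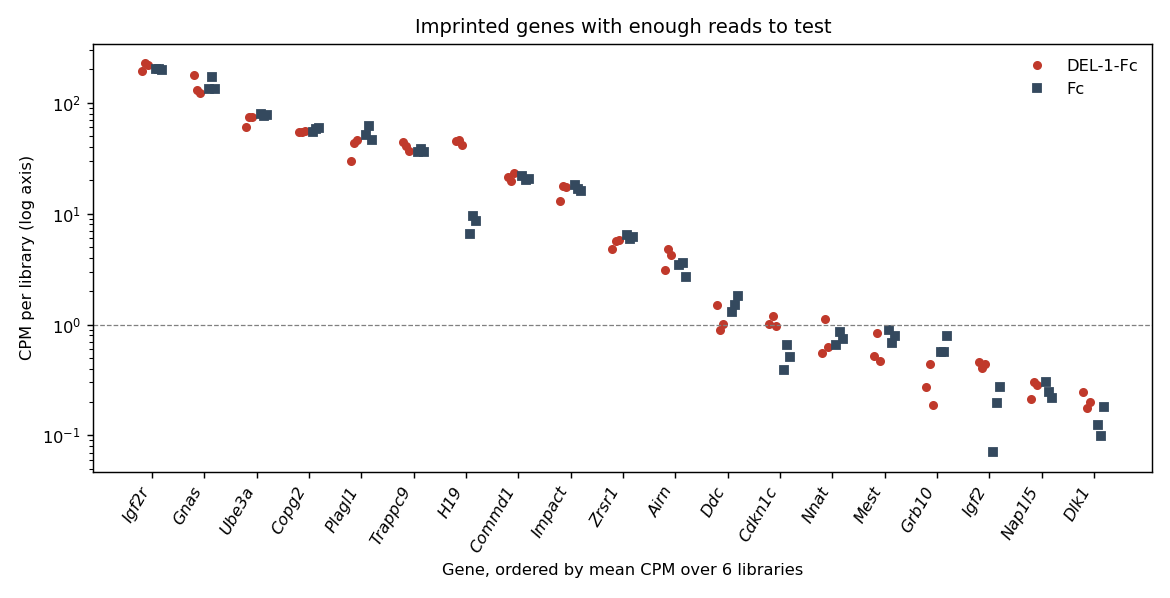
CPM of the 19 tested imprinted genes in each library on a log axis, DEL-1-Fc (red circles) left of Fc (dark squares), ordered by mean level; the dashed line marks 1 CPM. H19 is the gene whose groups stand widest apart, and 7 of the 19 did not reach 1 CPM in 3 libraries.

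Many members of the classical fetal clusters were close to silent. At a limit of 1 CPM in at least 3 libraries, 12 of the 31 matched members were expressed, and 4 (Usp29, Zim1, Meg3 and Magel2) had 0 counts in all 6 libraries. The number of members at or above 1 CPM was 13, 13 and 12 in DEL-1-Fc and 12 in each Fc library. Dlk1, a ligand-like membrane protein of the Meg3 cluster, had 8, 10 and 12 counts in DEL-1-Fc and 7, 6 and 10 in Fc, and its log2 fold change of 0.60 (SE 0.406) did not pass (edgeR adjusted p = 0.381). Nnat, neuronatin, had between 18 and 64 counts in DEL-1-Fc and between 37 and 53 in Fc (0.05, adjusted p = 0.934). Nap1l5, a nucleosome assembly family gene, had between 7 and 17 counts in DEL-1-Fc and between 12 and 17 in Fc (0.10, adjusted p = 0.872).

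The other 8 members had a few counts and were not tested. Peg10, a retrotransposon-derived gene, had 1, 2 and 5 counts in DEL-1-Fc and 7, 9 and 10 counts in Fc, without overlap, and in the fit with no filter it did not pass (edgeR adjusted p = 0.189). Peg3, a zinc finger gene, and Sgce, a sarcoglycan, had at most 5 counts in any library, and Phlda2, a placental growth restrainer, at most 9. Ndn, Rian, Mirg and Slc38a4 had at most 2. Outside the matched members, the row Gm38393 (chr7:59974149-60005064, minus strand) overlaps the annotated Snrpn gene, and whether its reads are those of Snrpn was not tested. It had 4, 4 and 1 counts in DEL-1-Fc and 15, 10 and 4 counts in Fc, so the groups met at 4, and it was too low to test.

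Of 31 tested genes that write, read or erase imprints, edgeR called 0 higher and 2 lower, which is 6.45% against 12.6% of all tested genes. The median log2 fold change was -0.12, against 0.01 for all tested genes. At an unadjusted p under 0.05, 0 were higher, and 1 was called higher by DESeq2 and 0 by limma-voom. Tdg rose most, with 112.6, 210.4 and 211.0 CPM in DEL-1-Fc libraries, against 114.2, 118.2 and 117.0 CPM in Fc. It did not pass (log2 fold change 0.61, SE 0.252, edgeR adjusted p = 0.195), and its DEL-1-Fc replicate 1 lay below every Fc library. Together with the H19 regulators below, 9 genes were called without that library, against 5 with all 6 libraries. Daxx, a histone chaperone partner of Atrx, had 141.8, 135.4 and 143.1 CPM in DEL-1-Fc libraries, against 206.4, 226.3 and 223.1 CPM in Fc (-0.64, SE 0.0621, edgeR adjusted p = 0.000356). Eed, a Polycomb subunit, was lower by a smaller margin (-0.25, SE 0.0616, adjusted p = 0.0308), a call lost without DEL-1-Fc replicate 2 or 3 or any one Fc replicate (adjusted p = 0.0636, 0.0800, 0.132, 0.113 and 0.125). Ctcf, the insulator protein of the H19 control region, averaged 224.5 CPM in DEL-1-Fc libraries, against 209.0 CPM in Fc (0.10, adjusted p = 0.290). Dnmt1, which copies methylation at replication, averaged 662.2 CPM in DEL-1-Fc libraries, against 654.7 CPM in Fc (0.02, adjusted p = 0.922), and Trim28, the corepressor that protects imprints, 517.5 CPM in DEL-1-Fc libraries, against 568.8 CPM in Fc (-0.14, adjusted p = 0.320). Zfp57, an imprint-protecting zinc finger gene of the embryo, was too low to test.

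Of 12 tested factors described as acting on H19 or on its miRNA, edgeR called 0 higher and 3 lower, which is 25.0% of a short list against 12.6% of all tested genes. The median log2 fold change was -0.11, against 0.01 for all tested genes. DESeq2, limma-voom and an unadjusted p under 0.05 each gave 0 higher as well. Myc, which activates the H19 promoter in other cells, had 880.2, 829.3 and 758.1 CPM in DEL-1-Fc libraries, against 1022.9, 1061.7 and 994.5 CPM in Fc (log2 fold change -0.32, SE 0.0765, edgeR adjusted p = 0.0268). Hif1a, the hypoxia factor, was lower by a log2 of -0.43 (adjusted p = 0.0260), and Drosha, which cuts miRNA precursors from their hosts, by -0.26 (adjusted p = 0.0365). Without any one Fc replicate these 3 calls were lost, with adjusted p between 0.0837 and 0.169, as were those of Myc and Drosha without DEL-1-Fc replicate 3 (0.0810 and 0.105) and those of Hif1a and Drosha with library sizes alone (0.0514 and 0.0548). Trp53 (0.09, adjusted p = 0.503) and E2f1 (0.04, adjusted p = 0.724) did not pass.

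In the IGF system, 2 of 7 tested genes rose and 0 fell by edgeR, which is 28.6% against 12.6% of all tested genes. The median log2 fold change was -0.21, against 0.01 for all tested genes. At an unadjusted p under 0.05, 3 were lower, and 0 were called lower by DESeq2 or limma-voom. Igfbp4, a secreted IGF-binding protein, had 350.3, 275.3 and 203.4 CPM in DEL-1-Fc libraries, against 97.7, 111.6 and 107.1 CPM in Fc (log2 fold change 1.39, SE 0.189, edgeR adjusted p = 0.00505). Igfbp7, a related secreted protein, had 35.9, 29.6 and 30.0 CPM in DEL-1-Fc libraries, against 23.1, 21.9 and 20.1 CPM in Fc (0.55, SE 0.0941, adjusted p = 0.00586). The receptor genes Igf1r (-0.21, adjusted p = 0.164) and Insr (-0.21, adjusted p = 0.307) did not pass. Among 9 tested genes of the let-7 miRNA pathway, to which H19 has been linked, 2 were called, which is 22.2% against 12.6% of all tested genes, and the median log2 fold change was -0.08 against 0.01. Bach1, a heme-sensing repressor, rose (0.88, SE 0.0998, adjusted p = 0.000693) and Arid3a, a DNA-binding factor, fell (-0.77, SE 0.0744, adjusted p = 0.000356).

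A further 33 tested genes that have been listed as imprinted or as candidates, for some of which imprinting is disputed, gave 3 higher and 4 lower calls, which is 21.2% against 12.6% of all tested genes. Their median log2 fold change was 0.01, as over all tested genes. Tspan32 and Cd81 are among them. The other risers were Begain (0.52, edgeR adjusted p = 0.0231) and the low Qpct (1.90, adjusted p = 0.0456), and the other fallers were Dhcr7, the last enzyme of cholesterol synthesis (-0.34, adjusted p = 0.00986), Bcl2l1, which encodes the survival protein BCL-XL (-0.30, adjusted p = 0.0292), and Atp10a, a phospholipid flippase (-0.22, adjusted p = 0.0381). None of these 5 calls held in every setting: the highest adjusted p was 0.114 for Begain, 0.112 for Qpct, 0.129 for Bcl2l1, 0.172 for Atp10a and 0.0652 for Dhcr7. The library left out was Fc replicate 1 for Begain, DEL-1-Fc replicate 2 for Qpct and Fc replicate 2 for the others.

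RefSeq promoter windows (GRCm38.p6, 250 bases before to 50 after each start) were given for 25 of the members, in 39 windows, and windows of H19 and Cdkn1c were not used here. The letters TGCCGC, the core of the motif of ZFP57, were found on either strand in 11 of the 39 windows, from 10 of the 25 genes. Of all 32851 windows, 3813 held them (11.6%). The RUNX letters TGTGGT were found in 5 of the 39 (5 genes), against 5506 of all windows (16.8%). The E-box CACGTG was found in 2 (2 genes), against 2349 (7.15%), and the GC box GGGCGG in 22 (17 genes), against 11714 (35.7%). Windows of the same gene are not independent. These are matches of letters and not binding sites.

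Among the marker lists of other cell types, 2 had sums that did not overlap between the groups, and each of these held 1 called gene. The 3 endothelial markers summed to between 73.4 and 85.0 CPM in DEL-1-Fc libraries, against sums between 57.8 and 68.4 CPM in Fc. Nearly all of it was Pecam1, which T cells also express (log2 fold change 0.36, edgeR adjusted p = 0.0237), while Cdh5 and Kdr were near 0. The 2 CD8 markers summed to between 11.9 and 12.8 CPM in DEL-1-Fc libraries, against sums between 10.1 and 10.4 CPM in Fc, with Cd8a called higher (0.78, adjusted p = 0.00607) and Cd8b1 not (0.04, adjusted p = 0.846). Single genes of other lists also did not overlap between the groups, without being called. Kit (0.48, edgeR adjusted p = 0.0688), Cd79b (0.73, 0.0921), Itgam (1.04, 0.178) and the untested Hba-a1 and Flt3 lay higher in DEL-1-Fc. Procr (-0.70, adjusted p = 0.0746) and Cd68 (-0.11, 0.572) lay lower. The part of any of these markers in the H19 difference was not tested.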

How the data were processed

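Each library has its own deposited table of gene-level read counts, not normalized. Per the submitters' processing notes, the authors used STAR and HTSeq 0.6.0 with GRCm38 (mm10). Not given in the sources used here: the annotation release, the strand setting and the handling of multi-mapping reads. For that reason reads of tested members whose exons overlap another gene over a sizeable part are called uncertain. Symbols, coordinates and exon lengths came from GENCODE M21 (GRCm38), which named 37693 of 39179 rows.

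After a low-count filter (filterByExpr on the groups, with a minimum count of 10 and a minimum total of 15) and TMM scaling, edgeR 4.0.16 (R 4.3.3) gave the robust quasi-likelihood test of DEL-1-Fc against Fc, and Benjamini-Hochberg adjustment over all 14928 genes kept, with calls at 0.05. CPM was computed on TMM-scaled totals. A positive log2 fold change means higher in DEL-1-Fc, and the SE is the absolute log2 fold change over the square root of F. No p was adjusted over the members alone. The fit was tested on simulated data in which every gene had the same dispersion and no library deviated. It was not tested for dispersions that differ between genes or for a library that stands apart.

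Members, lists and tests were chosen with earlier results of these data known. Named genes were all members, the neighbours of H19 within 200 kb that reached 1 CPM in 3 libraries, and the called genes of each list with the smallest p (up to 4, or 10 for further imprinted genes); others were chosen after their values were seen. Shared sequence was measured as 31-base words of the longest transcript. Within groups, the lowest chi-square between libraries was 19.9 per degree of freedom, so none is a copy. Alternatives were DESeq2 1.42.0, limma-voom (limma 3.58.1), other scaling factors, other filters, non-robust dispersions, a block for replicate number, and leaving out each library. The count floor given for Igf2 covers counting error only, while each SE also holds the spread between libraries.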

Additional observations from a re-analysis of the deposited data

How the results depend on the processing

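The H19 difference moved by less than the replicate spread in all 15 settings. Over the 18 other tested members and the settings that tested them, 252 values stayed on the same side of the threshold, 4 lost a call (all Cdkn1c) and 5 gained one (Igf2r, Airn, Ddc and, in 2 settings, Grb10). The count of called genes was 1884, between 901 and 3003 with a library left out (3003 when DEL-1-Fc replicate 1 was absent; 901, 970 and 963 when Fc replicate 1, 2 or 3 was) and 413 at an absolute log2 fold change of at least 1. Members called higher numbered 1, between 0 and 3 with a library left out, and 0 with a filter of 5 CPM in 3 libraries, which leaves Cdkn1c untested. Members called lower numbered 0, between 0 and 1 with a library left out, and 1 with no filter. Of the imprinting genes and H19 regulators, 5 were called, 1 to 9 with a library left out, 3 with library sizes alone and 0 at the fold threshold. Members detected numbered 27 by at least 1 count in any library and 19 by 10 counts in each of 3 libraries. The cause of these shifts was not tested.

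The labels do not say whether the replicate numbers pair the libraries. Same-numbered deviations correlated by 0.02, 0.09 and 0.04, which with 3 libraries per group cannot settle it. With the replicate block, Begain (adjusted p = 0.0511) and Atp10a (0.0597) lost their calls, Cdkn1c kept its call (0.0330), and 1510 genes were called, 1436 of them also called without the block. Not every library correlated best with its own number. Depth limits what can be said of the 7 tested members that did not reach 1 CPM in 3 libraries and of the 12 not tested.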
